A study of Mus musculus with 28 samples.

Results

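Extracellular vesicle (EV) pellets and the EV-depleted plasma of young mice were compared across all classes of noncoding RNA. The comparison holds the 6 libraries of 2-month-old mice among the 28 small RNA libraries of the series, 3 from EV-enriched pellets (called EV libraries) and 3 from the fluid left above the pellet (called plasma libraries). All came from wild-type female mice of the inbred strain C57BL/6N that received no treatment other than ketamine and xylazine anesthesia for blood collection. The other 22 libraries come from 11 mice aged 6, 8, 12 or 18 months and served only for comparison. By the study's protocol, platelets, large vesicles and debris were first spun out of the plasma, and ultracentrifugation of the remaining plasma then gave pellet and supernatant of 1 animal each, with no pooling. A pellet of this kind is enriched in EVs but not purified, so that protein complexes and other particles of like size can be in it.

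EVs are membrane-bound particles that cells shed into body fluids, and they carry RNA that the membrane shields from nucleases. Outside vesicles, circulating RNA persists mainly in complexes with proteins such as Argonaute or in lipoproteins, or as stable fragments of structured RNAs. The structured RNAs include transfer RNA (tRNA), which brings amino acids to the ribosome, ribosomal RNA (rRNA), the body of the ribosome, small nuclear RNA (snRNA) of the spliceosome and small nucleolar RNA (snoRNA), which guides chemical modification of rRNA.

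The labels give 2 of the 3 plasma libraries, replicates 2 and 3, one shared mouse code, whereas the EV libraries carry 3 different codes. The code of EV replicate 1 is also that of plasma replicate 1, and the shared plasma code combines those of EV replicates 2 and 3. Over miRNA counts the chi-square of these 2 plasma libraries was 12.9 times its degrees of freedom, within the 9.75 to 34.9 of the pairs of libraries in either fraction, and they were kept as 2 libraries in an unpaired test. Whether they come from 1 animal, 2 animals or a pool cannot be told apart from the labels, although the protocol states that no samples were pooled, so that plasma values with n = 3 may rest on fewer animals, and the p-values measure the spread between these libraries. Summed counts lay between 8483227 and 27444646 per library, of which 28393 to 95288 were miRNA counts. These sums are not reads, because a read that matches several copies was counted on each. With the first row of each identical group left out, rows whose 28 values repeat it held 45.2% to 61.4% of the counts. The first principal component of log-scale levels held 43.4% of the variance and separated the fractions. Levels are given in RPM, the authors' depth-scaled unit, which is not corrected for length and in which 1 count was worth 0.0996 to 0.177 RPM. Since every level is relative to the library, fewer vesicles or complexes of a kind and less RNA in each cannot be told apart.

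Ribosomal RNA took a larger share of the EV libraries, and tRNA a larger share of plasma. Of all counts, rRNA held 30.5%, 46.8% and 49.0% in the EV libraries and 14.6%, 12.7% and 12.4% in plasma, a mean of 42.1% ± 10.1 (SD, n = 3) against 13.2% ± 1.19. The reverse held for tRNA, with 41.7%, 24.9% and 34.3% in EVs and 64.7%, 58.6% and 66.9% in plasma (33.6% ± 8.42 against 63.4% ± 4.29, SD, n = 3). For both classes the lowest library of one fraction lay above the highest of the other. An exact two-sided permutation test of 3 against 3 libraries cannot go below p = 0.1, and both classes reached that value (0.5 after Benjamini-Hochberg adjustment over the 10 classes). With repeated rows counted once, rRNA held 24.1%, 38.6% and 35.5% in EVs against 13.5%, 13.4% and 13.1% in plasma, and tRNA 23.2%, 12.7% and 24.1% against 41.8%, 31.9% and 41.4%, without overlap. Part of the tRNA difference is tied to the rRNA share by arithmetic: of the counts that are not rRNA, tRNA held 60.0%, 46.8% and 67.2% in EVs and 75.7%, 67.1% and 76.4% in plasma, where the ranges meet. In the 11 older mice the rRNA share was higher in the EV library of every mouse and the tRNA share higher in the plasma library of every mouse. The remaining 8 classes overlapped between the fractions, miRNAs among them with 0.409%, 0.411% and 0.347% in EVs and 0.374%, 0.335% and 0.248% in plasma.

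**Figure D1:**
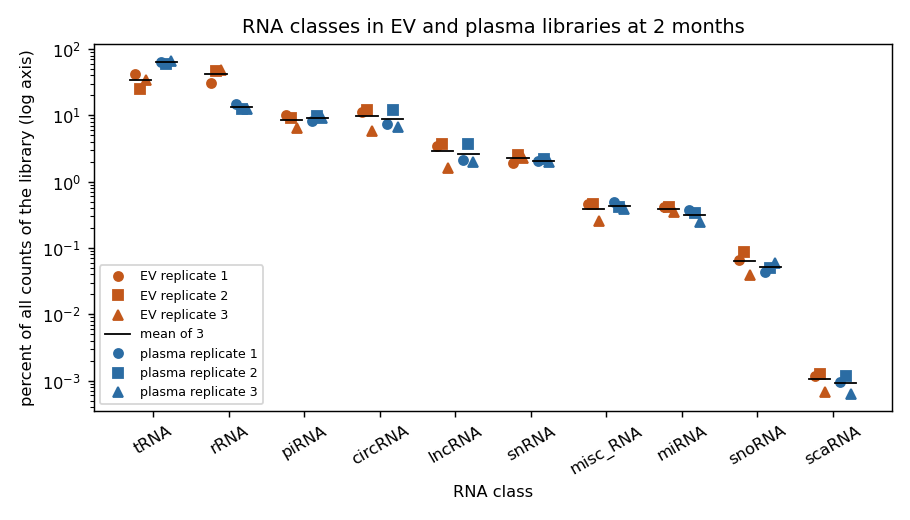
Percent of all counts of a library (y axis, log scale) in each RNA class (x axis) for the 3 EV and the 3 plasma libraries at 2 months, with 1 symbol per replicate and a bar at the mean. The EV libraries lie above the plasma libraries in rRNA (means 42.1% and 13.2%) and below them in tRNA (33.6% and 63.4%), and the other classes overlap.

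Single RNAs were tested with edgeR's quasi-likelihood test over the 18564 RNAs with at least 1 RPM in at least 1 library of a fraction, at a Benjamini-Hochberg adjusted p of 0.05. The test called 532 RNAs (2.87% of those tested), 299 higher in EVs (1.61%) and 233 higher in plasma (1.26%), with a median log2 fold change of 2.76 in size in each direction. Of the 532, 529 did not overlap between the 6 libraries in RPM, as did 23.2% of all RNAs tested. An unadjusted p under 0.05 was reached by 3153 of the 18564. DESeq2 called 543 and 321, and 496 of the 532 were called by both tools. The balance of directions depended on the scaling. TMM, which assumes that most RNAs do not change, put the median of all RNAs at −0.04 (log2), and the authors' RPM scaling put it at −0.34 and called 298 and 590. Total counts called 314 and 440, and TMM factors from miRNAs alone called 355 and 814. Leaving out plasma replicate 2 left 187 calls, EV replicate 3 left 257, plasma replicate 3 left 294 and EV replicate 2 left 312, and summing the 2 plasma libraries of the shared code left 290.

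**Figure D2:**
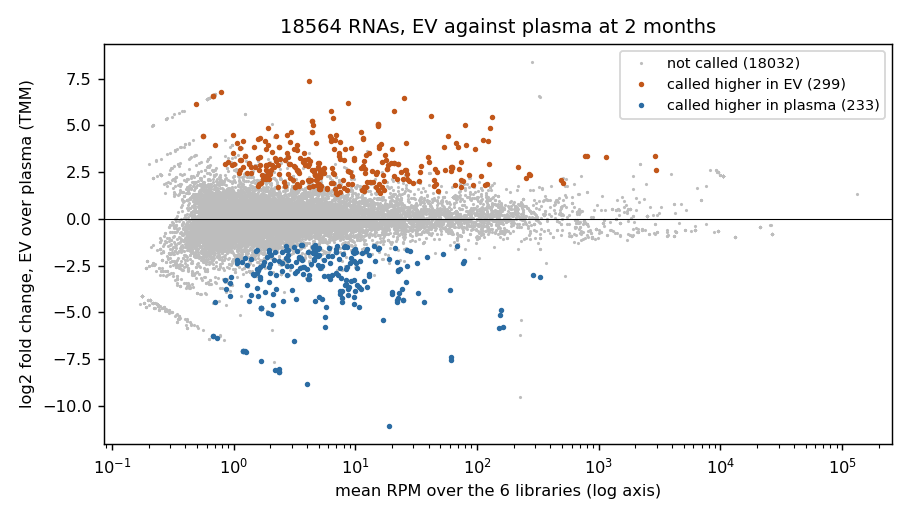
Log2 fold change of EV over plasma (y axis, TMM scale) against the mean RPM over the 6 libraries (x axis, log scale) for 18564 RNAs, with the 299 RNAs called higher in EVs and the 233 called higher in plasma in color. The calls of both directions lie over most of the range of levels, and the RNAs of highest level, at the right edge, are gray.

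Most calls fell on entries of circular RNAs (circRNAs), 120 higher in EVs and 118 in plasma, and of long noncoding RNAs (lncRNAs), 79 and 77. The share called, 1.26% and 1.24% for circRNAs and 1.25% and 1.22% for lncRNAs, lay near that of all RNAs. In rRNA 13 of 197 RNAs tested were called higher in EVs (6.60%) and 2 higher in plasma. Sequences annotated as PIWI-interacting RNAs (piRNAs) gave 58 calls for EVs and 25 for plasma among 1165, and snoRNAs 10 and 2 among 207. The snRNAs gave 9 and 5 calls among 298, misc_RNA (a class that holds Y RNA, 7SL and others) 3 and 2 among 148, miRNAs 3 and 2 among 297 and tRNAs 4 and 0 among 407. Under other scalings the split moved within several classes. With RPM scaling, total counts and TMM factors from miRNAs alone, circRNAs gave 110 and 280, 92 and 176, and 107 and 345 calls for EVs and plasma, lncRNAs 71 and 205, 51 and 114, and 62 and 239, and piRNAs 62 and 72, 85 and 101, and 91 and 138. The tRNAs gave 2 and 0, 0 and 26, and 0 and 48 calls under the same scalings, and 10 and 0 with DESeq2. The rRNA calls kept to the EV side, with 17 and 5, 58 and 6, and 62 and 6. None of the 10 small Cajal body RNAs (scaRNAs) tested was called by edgeR or DESeq2. An unadjusted edgeR p under 0.05 was found in 3 of them and in 3153 of all 18564 RNAs. The median log2 fold change was 1.77 for rRNA, 0.72 for scaRNAs, 0.50 for miRNAs, 0.42 for snRNAs, 0.35 for snoRNAs, −0.36 for piRNAs and −0.44 for tRNAs, against −0.04 for all RNAs. Under the RPM scaling these medians moved down together, to 1.45 for rRNA, 0.21 for miRNAs and −0.69 for tRNAs. With TMM factors from miRNAs alone, snRNAs and snoRNAs went below 0 (−0.03 and −0.07) and stayed above the −0.49 of all RNAs.

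**Figure D3:**
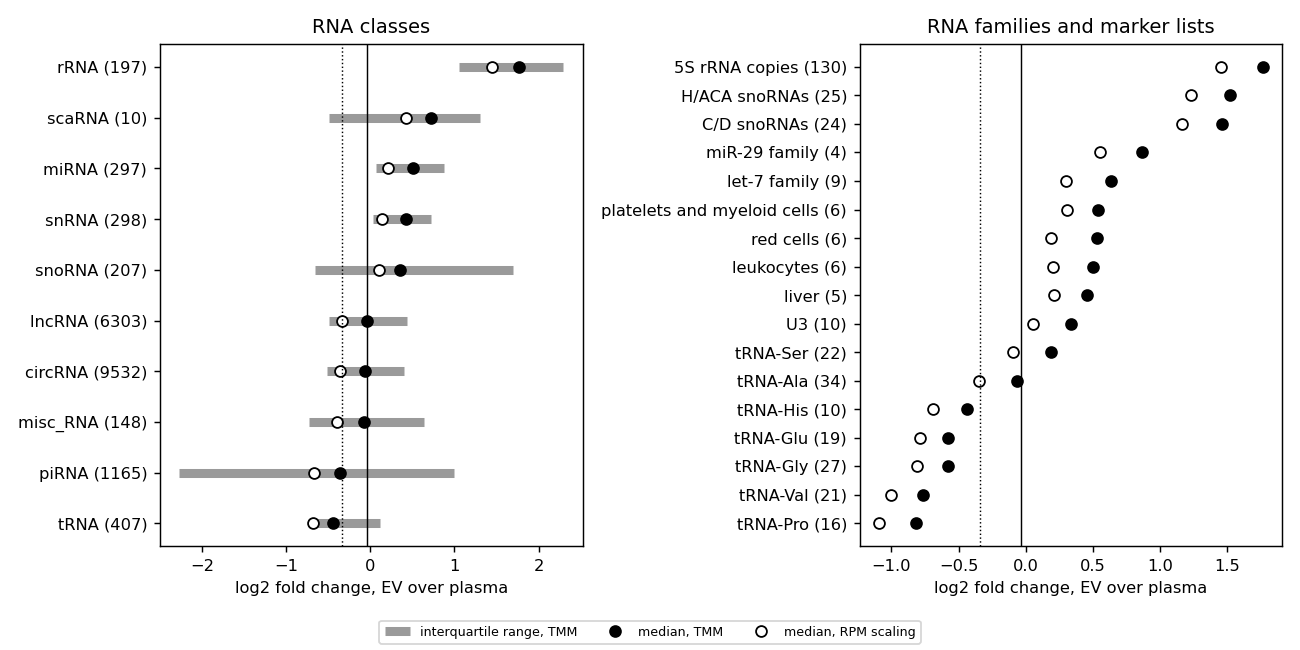
Median log2 fold change of EV over plasma by RNA class (left, with the interquartile range over RNAs as bars) and by RNA family or marker list (right), filled for TMM and open for RPM scaling, with the number of RNAs tested in parentheses. Vertical lines mark the medians of all RNAs, −0.04 (solid, TMM) and −0.34 (dotted, RPM), and rRNA and the snoRNA families lie to their right while most tRNA groups lie to their left.

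The calls do not stand for 532 separate molecules. When called rows whose values in the 3 libraries of the higher fraction differ by less than 10% are joined, a tolerance chosen after the data were seen, 398 sets remain, 231 higher in EVs and 167 in plasma. The largest set holds 6 rows, all circRNAs of Ehmt1, a histone methyltransferase gene. Such rows can draw on the same reads, so that the RNA named is one of several candidates.

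Of the 197 ribosomal RNAs tested, 181 (91.9%) had a log2 fold change above 0, against 48.0% of all RNAs. Of the 2 called higher in plasma, Gm24931 was at 1.59, 0.487 and 1.29 RPM in EVs and 5.14, 7.27 and 5.8 RPM in plasma, without overlap (log2 fold change −2.09 ± 0.37, SE, edgeR adjusted p = 0.0151), and the other is a 5S copy. The 5S component of the large subunit is annotated in many copies, some so alike that a short read cannot tell them apart. Of these copies 130 passed the filter, with 98 distinct sets of values among them, and 122 of the 130 had a log2 fold change above 0 (median 1.77). Of the 130, 8 were called higher in EVs and 1 higher in plasma, where DESeq2 called 65 and 89 had an unadjusted edgeR p under 0.05. That level was reached by 3153 of all 18564 RNAs tested. The exception, n-R5s219, was at 0.697, 0.812 and 0.353 RPM in EVs and 5.63, 7.27 and 4.32 RPM in plasma (log2 fold change −2.88 ± 0.41, SE, edgeR adjusted p = 0.00478). Its call held without any single library, and its log2 fold change was 0.18 at 6 to 8 months and −4.36 at 12 to 18 months. Rn5s, whose values are shared by 32 rows, was at 8161, 11300 and 30971 RPM in EVs and at 5935, 2515 and 4329 RPM in plasma, so the fractions did not overlap, with EV replicate 3 the highest. Its log2 fold change of 2.30 ± 0.70 (SE) did not pass (edgeR adjusted p = 0.121, DESeq2 0.000738).

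Among the 5S copies, n-R5s195 stood at 231, 212 and 673 RPM in EVs against 72.3, 31.0 and 90.0 RPM in plasma, a log2 fold change of 2.78 ± 0.61 (SE, adjusted p = 0.0401). n-R5s52 (chr13:14118743-14118855) was at 11.7, 8.77 and 30.6 RPM against 0.490, 0.177 and 0.114 RPM, 6.23 ± 0.66 on the log2 scale (SE, edgeR adjusted p = 0.00111). Gm23668, annotated as rRNA on chromosome 9, was at 51.0, 42.4 and 152 RPM against 3.92, 1.77 and 1.14 RPM (5.49 ± 0.65, adjusted p = 0.00173). In these 3 RNAs the lowest EV library lay above the highest plasma library, and EV replicate 3 was the highest. The naming rule required such a gap of n-R5s52 and Gm23668. The calls of n-R5s52 and Gm23668 held without any single library, whereas that of n-R5s195 held in 1 of the 6 fits that leave out a library. Gm23381 was at 7.07, 15.8 and 38.7 RPM in EVs and 3.55, 2.84 and 2.84 RPM in plasma (3.08 ± 0.59, adjusted p = 0.0234), and its call also held in 1 of 6 fits, the one without EV replicate 1. The longest run shared with Rn5s was 29 bases for n-R5s195, 13 for n-R5s52, 22 for Gm23668 and 14 for Gm23381. These transcripts are 94 to 119 bases long. Whether reads on these rows come from 5S rRNA was not tested.

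Neither the chromosome 17 rRNA gene nor the 5.8S rRNA passed edgeR, while DESeq2 called both. CT010467.1, an rRNA gene of chromosome 17 with the highest RPM of the class, was at 123552, 238558 and 158179 RPM in EVs and 96382, 80041 and 91957 RPM in plasma. That is 1.35 ± 0.76 on the log2 scale (SE, edgeR adjusted p = 0.404, DESeq2 0.0281). The 5.8S rRNA n-R5-8s1, a partner of 28S rRNA in the large subunit, was at 210, 453 and 472 RPM against 146, 179 and 189 RPM (1.52 ± 0.46, adjusted p = 0.121, DESeq2 0.0135). Both were higher in every EV library than in any plasma library.

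Of the 207 snoRNAs tested, 130 (62.8%) had a log2 fold change above 0, 10 were called higher in EVs and 2 in plasma. All 25 H/ACA snoRNAs tested, which guide pseudouridylation, had a log2 fold change above 0, with a median of 1.52, and so did 21 of 24 C/D snoRNAs, which guide 2′-O-methylation, with a median of 1.46. Both medians stayed above 1 under RPM scaling (1.23 and 1.16) and with TMM factors from miRNAs alone (1.10 and 1.05). One of them passed, the H/ACA snoRNA Snora81, while DESeq2 called 6 H/ACA and 2 C/D snoRNAs and 14 and 9 had an unadjusted edgeR p under 0.05. Such a p was found in 80 of all 207 snoRNAs and in 3153 of all 18564 RNAs tested. Summed over their 42 table entries, H/ACA snoRNAs stood at 159, 323 and 128 RPM in EVs and 85.7, 39.5 and 67.7 RPM in plasma (exact permutation p = 0.1, the smallest possible). The sum over 88 C/D snoRNAs was 40.5, 35.2 and 55.6 RPM against 32.6, 20.2 and 20.8 RPM, and neither sum overlapped. U3, the snoRNA of rRNA processing, overlapped, with a sum of 276, 415 and 432 RPM in EVs and 320, 161 and 573 RPM in plasma and a median of 0.34 that fell to −0.09 with TMM factors from miRNAs alone.

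Snora81 (chr16:23110756-23110933, plus strand) and its near copy Gm22519 (chr15:71794188-71794365, plus strand) share the 92 bases in capitals (GENCODE M21 transcripts of GRCm38), and the counts of the pair were almost equal in every library. Snora81 is shown for both.
Snora81: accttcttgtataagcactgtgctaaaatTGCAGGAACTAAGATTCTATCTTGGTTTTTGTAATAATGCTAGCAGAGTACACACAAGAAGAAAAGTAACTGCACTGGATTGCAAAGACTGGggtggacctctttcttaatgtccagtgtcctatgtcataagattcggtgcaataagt
It was at 8.36, 20.3 and 14.6 RPM in EVs and 3.67, 1.42 and 4.10 RPM in plasma (log2 fold change 2.56 ± 0.55, SE, edgeR adjusted p = 0.0380), and Gm22519 at 8.26, 20.3 and 14.1 RPM against 3.67, 1.42 and 4.10 RPM (2.54 ± 0.55, adjusted p = 0.0387). Both calls held in 1 of 6 fits without a library, the one without EV replicate 1, and reached adjusted p = 0.128 and 0.133 without plasma replicate 2. In the fit over all 28 libraries Snora81 was not called at 2 months (adjusted p = 0.174) and was called in the older mice, with a log2 fold change of 3.17 at 6 to 8 months (adjusted p = 0.00334) and 4.78 at 12 to 18 months (adjusted p = 0.00266). Snora73a, a snoRNA with a part in rRNA processing, had the highest RPM of its family, 51.9, 117 and 27.7 RPM against 19.1, 10.1 and 17.6 RPM, and did not pass (2.47 ± 0.60, adjusted p = 0.0616). On the plasma side Gm23598, annotated as a snoRNA on chromosome 2, was at 0.996, 1.30 and 3.29 RPM in EVs and 19.4, 8.87 and 16.8 RPM in plasma (−2.71 ± 0.53, adjusted p = 0.0252, called in 3 of 6 fits without a library).

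Among snRNAs the calls for EVs fell on gene copies without a spliceosomal name. The U1 genes (Rnu1a1, Rnu1b1, Rnu1b2 and Rnu1b6), Rnu2-10, Rnu5g, Rnu7, Rnu11 and Rnu12 had log2 fold changes between 0.24 and 0.64, and edgeR and DESeq2 called 0 of these 9 genes, with 0 at an unadjusted p under 0.05. Their median of 0.46 fell to −0.09 with TMM factors from miRNAs alone. Of all 298 snRNAs edgeR called 3.02% higher in EVs and 1.68% higher in plasma, and 39 had an unadjusted p under 0.05. The 9 genes are too few to set apart from these shares. Rnu1a1, part of the U1 particle that marks 5′ splice sites, was at 1128, 1662 and 2922 RPM in EVs and 1912, 1299 and 1824 RPM in plasma. Gm26327 was at 17.8, 19.0 and 14.0 RPM in EVs and 2.33, 3.90 and 1.48 RPM in plasma (log2 fold change 3.13 ± 0.38, SE, edgeR adjusted p = 0.00208), a call that held without any single library. Gm22448 was at 26.4, 20.8 and 15.8 RPM against 8.21, 7.80 and 4.67 RPM (1.96 ± 0.32, adjusted p = 0.0123), and its call was lost without plasma replicate 2 (adjusted p = 0.0655) or 3 (0.050, above the threshold before rounding). In both RNAs the fractions did not overlap, which the rule for naming them required. In the fit over all 28 libraries Gm26327 was called at 2 months (adjusted p = 0.0369) and not at 6 to 8 months (log2 fold change 0.66, adjusted p = 0.459) or 12 to 18 months (1.53, adjusted p = 0.193), and Gm22448 was called at none of these ages.

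Transfer RNAs had a smaller share of the EV counts, and which single genes were called depended on the scaling. With TMM 4 genes were called higher in EVs and 0 in plasma, and with total counts or TMM factors from miRNAs alone 0 were called higher in EVs and 26 and 48 in plasma. Of the 407 tRNA genes tested, 107 (26.3%) had a log2 fold change above 0, against 48.0% of all RNAs. The 408 tRNA genes of the series hold 224 distinct sets of values, so genes with identical values are counted more than once. The tRNA genes for proline, glutamate, histidine, threonine and tyrosine and the initiator methionine tRNAs had 0 members above 0. The group medians ran from −0.90 for isoleucine to 0.53 for methionine and 1.13 for tryptophan, and the selenocysteine tRNA alone stood at 1.73. tRNA-Pro-TGG-2-1, one of 4 identical rows with the highest RPM of the class, was at 12962, 10276 and 27819 RPM in EVs and 39932, 26120 and 42778 RPM in plasma (log2 fold change −0.81 ± 0.64, SE, edgeR adjusted p = 0.562), and EV replicate 3 lay within the plasma range. Summed RPM did not overlap for the glutamine tRNAs (23390, 18752 and 36166 RPM in EVs, 61409, 37818 and 54913 RPM in plasma), nor for the isoleucine and cysteine tRNAs, all lower in EVs. The sums of all other tRNA groups overlapped. Of all RNAs tested singly, 23.2% did not overlap, so these groups are not set apart by the gap.

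The 4 genes called with TMM were 3 alanine tRNAs and 1 leucine tRNA, and 34 alanine and 26 leucine tRNA genes were tested. tRNA-Ala-CGC-7-1 was at 101, 67.1 and 176 RPM in EVs and 34.5, 30.5 and 34.1 RPM in plasma (log2 fold change 2.09 ± 0.39, SE, edgeR adjusted p = 0.0205). tRNA-Leu-TAA-3-1 was at 44.3, 21.6 and 58.3 RPM against 17.4, 12.4 and 5.35 RPM (2.15 ± 0.43, adjusted p = 0.0279), and tRNA-Ala-CGC-4-1 at 166, 96.3 and 260 RPM against 67.1, 50.0 and 60.6 RPM (1.84 ± 0.40, adjusted p = 0.0385). The fractions did not overlap in any of the 3, a condition for naming them. Their calls held in 3, 2 and 1 of the 6 fits without a library, with adjusted p up to 0.0925, 0.119 and 0.145, each without plasma replicate 2. The fourth, tRNA-Ala-TGC-6-1, held in 0 of 6. Genes of one tRNA are near copies of each other, and which copy a fragment came from cannot be told apart here.

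The 5 called miRNAs are shown with those of highest RPM, all from RefSeq on GRCm38.p6, 5′ to 3′ with the seed (bases 2 to 8, which pair with targets) in capitals. The first 3 were called higher in EVs, the next 2 higher in plasma and the last 5 were not called.
miR-1956: aGUCCAGGgcugagucagcgga
miR-5129-5p: aUGUGGGGgcauugguauuuuc
miR-128-2-5p: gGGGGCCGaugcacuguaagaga
miR-1898: aGGUCAAGguucacaggggauc
miR-6409: uGCGGGUGaggaugugugcuccu
miR-451a: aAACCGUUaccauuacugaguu
miR-6238: uUAUUAGUcaguggaggaaaug
miR-25-3p: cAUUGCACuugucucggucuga
miR-3473b: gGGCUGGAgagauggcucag
miR-3473e: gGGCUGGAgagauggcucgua
No seed is shared among the called 5, while miR-3473b and miR-3473e share GGCUGGA. The 20 bases of miR-3473b occur in transcripts of 359 genes of the annotation and those of miR-1956 also in Eif4e transcripts, whose gene holds the miR-1956 hairpin on chromosome 3.

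The miRNA with the clearest difference was miR-1956, at 29.2, 34.9 and 21.9 RPM in EVs and 4.78, 3.37 and 5.12 RPM in plasma, a log2 fold change of 3.02 ± 0.40 (SE, edgeR adjusted p = 0.00329). Every EV library lay above every plasma library, as the naming rule required, and the call held without any single library. It was called in the older mice as well, at 3.99 for 6 to 8 months (adjusted p = 3.98e-05) and 4.77 for 12 to 18 months (adjusted p = 0.000574). The other 4 called miRNAs had means under 10 RPM and were named after their values were seen. miR-5129-5p was at 5.97, 2.92 and 8.11 RPM in EVs and 1.35, 1.42 and 1.02 RPM in plasma (2.47 ± 0.39, adjusted p = 0.00906, lost without plasma replicate 2 at 0.0542). miR-128-2-5p, the lesser arm of a hairpin of the neuronal miR-128, was at 1.29, 1.46 and 2.00 RPM against 0.245, 0.177 and 0.228 RPM (3.05 ± 0.56, adjusted p = 0.0183, held in 2 of 6 fits without a library). On the plasma side, miR-1898 was at 0.498, 0.487 and 1.18 RPM in EVs and 4.90, 4.96 and 5.8 RPM in plasma (−2.54 ± 0.43, adjusted p = 0.0144, held in 6 of 6), and miR-6409 at 0.398, 0.162 and 0.353 RPM against 2.33, 1.95 and 1.25 RPM (−2.18 ± 0.49, adjusted p = 0.0437, held in 0 of 6).

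edgeR called none of the 5 miRNAs with the highest RPM, and DESeq2 called miR-6238. The red cell miRNA miR-451a was at 1252, 1115 and 2977 RPM in EVs and 2378, 1095 and 933 RPM in plasma (log2 fold change 0.62 ± 0.54, SE, edgeR adjusted p = 0.605). miR-25-3p, whose hairpin lies in the replication gene Mcm7, was at 368, 367 and 377 RPM against 488, 291 and 264 RPM (0.45 ± 0.38, adjusted p = 0.592). miR-6238 was at 518, 1412 and 821 RPM in EVs and 235, 371 and 385 RPM in plasma, and its fractions did not overlap, but the edgeR test gave adjusted p = 0.105 (1.89 ± 0.54, DESeq2 0.00415). The repeat-like miR-3473b stood at 335, 138 and 376 RPM against 366, 209 and 381 RPM and miR-3473e at 322, 133 and 367 RPM against 349, 204 and 371 RPM, with log2 fold changes of 0.06 ± 0.44 and 0.07 ± 0.44.

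Marker miRNAs of blood and tissue cells overlapped between the fractions in their summed levels. edgeR and DESeq2 called 0 of the 31 markers tested for red cells, platelets and myeloid cells, leukocytes, liver, muscle, vessels and brain, and 1 had an unadjusted edgeR p under 0.05. Their medians on the log2 scale were 0.53, 0.54, 0.50, 0.46, 0.31, 0.79 and 0.17 in that order, beside 0.50 for all miRNAs. Of all 297 miRNAs edgeR called 1.01% higher in EVs and 0.67% higher in plasma, so 0 of 31 lies near the share of the class. An unadjusted edgeR p under 0.05 was found in 45 of the 297. The red cell list, 6 of 6 members tested, summed to 1650 to 3797 RPM in EVs and 1362 to 3376 RPM in plasma. The log2 ratio of miR-451a to miR-23a-3p, a measure of red cell lysis, was 2.85, 2.66 and 2.73 in EVs and 3.46, 3.57 and 1.88 in plasma, with plasma replicate 3 the lowest. Muscle and brain were near the limit of detection, with 2 of 7 and 2 of 8 markers passing the filter. The hepatocyte miRNA miR-122-5p was at 52.6, 16.2 and 17.4 RPM in EVs and 81.2, 14.5 and 12.7 RPM in plasma, high in replicate 1 of both fractions.

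Families of miRNAs gave no call. Of the let-7 family, which restrains cell growth, 9 of 9 were tested with a median of 0.63, and of the miR-29 family, which targets collagen mRNAs, 4 of 7 with a median of 0.86. Of the 17 repeat-derived miRNAs (miR-297, miR-466, miR-467 and miR-669) that passed among 80, the median was 0.28. edgeR and DESeq2 called 0 members of these 3 families, 3 members had an unadjusted edgeR p under 0.05, and the median of the repeat-derived miRNAs fell to −0.06 with TMM factors from miRNAs alone. Beside the 1.01% and 0.67% of all miRNAs that edgeR called higher in EVs and in plasma, 0 of 30 lies near the share of the class. Of all 297 miRNAs, 45 had an unadjusted edgeR p under 0.05. The levels overlapped in let-7g-5p, at 129, 120 and 154 RPM in EVs and 149, 87.2 and 91.0 RPM in plasma, and in miR-29a-3p, at 42.9, 44.8 and 123 RPM against 69.2, 25.7 and 46.2 RPM. Mature sequences were found for 238 of the 297 miRNAs. Letters described as sorting motifs of small vesicles were searched in them on the given strand. GGAG stood in 30 (12.6%), with a median log2 fold change of 0.30 against 0.55 without it, CCCU in 20 (8.40%, 0.50 against 0.54) and CNGGNC in 20 (8.40%, 0.47 against 0.56). The median GC content was 45.5% in the 194 miRNAs with a log2 fold change above 0 and 52.4% in the 44 below.

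Other small RNAs that work in complexes with proteins were the Y, vault, 7SL, 7SK and RNase MRP RNAs. They gave 0 calls with edgeR and DESeq2 among 8 tested. An unadjusted edgeR p below 0.05 was found in 2 of them and in 3153 of all 18564 RNAs. edgeR called 2.87% of all RNAs tested, and 8 RNAs are too few to set apart from that share. Of Y RNAs, which bind the Ro60 protein, Rny1 was at 88.0, 71.3 and 112 RPM in EVs and 111, 62.2 and 151 RPM in plasma (0.01 ± 0.43), and Rny3 at 12.4, 12.8 and 7.29 RPM against 13.7, 4.43 and 3.64 RPM (0.94 ± 0.50). The vault RNA Vaultrc5 did not overlap, at 25.5, 27.3 and 32.8 RPM against 20.0, 6.74 and 15.5 RPM (1.32 ± 0.43, SE, edgeR adjusted p = 0.144). 7SL, the RNA of the signal recognition particle, was at 1651, 1805 and 1873 RPM for Rn7s1 in EVs and 2664, 1364 and 2013 RPM in plasma (0.15 ± 0.46), with equal values in Rn7s2. Rmrp, the RNA of RNase MRP, had 4.98, 13.6 and 20.7 RPM against 6.74, 2.48 and 7.62 RPM (1.53 ± 0.60, adjusted p = 0.225).

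In the misc_RNA class Gm22667 was at 29.1, 24.2 and 95.3 RPM in EVs and 0.857, 0.709 and 0.455 RPM in plasma, 6.49 ± 0.65 on the log2 scale (SE, edgeR adjusted p = 0.00103). The lncRNA A530010L16Rik had nearly the same values in EVs, 30.4, 24.0 and 91.8 RPM, against 3.18, 4.79 and 3.07 RPM in plasma (4.06 ± 0.53, adjusted p = 0.00311), and both held in all 6 fits without a library. The longest run that both transcripts share is 16 bases, found in 0 other genes tested and shown here because the pair may draw on one fragment.
Gm22667 and A530010L16Rik: CCTGGGTGCCCCCTCC
Gm22667 lies at chr11:117132490-117132817 and A530010L16Rik at chr8:122760045-122763021, and n-R5s52 and Gm23668 above had the same order of libraries, with EV replicate 3 the highest.

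Among lncRNAs, whose roles are mostly unknown, the calls fell to both sides. The lncRNA 5430427N15Rik (chr5:103354306-103356698) was at 274, 270 and 196 RPM in EVs and 12.4, 9.04 and 10.5 RPM in plasma, a log2 fold change of 4.87 ± 0.42 (SE, edgeR adjusted p = 0.000622). Gm43156 (chr5:147745516-147749176) was at 204, 224 and 199 RPM against 20.7, 14.9 and 8.99 RPM (4.20 ± 0.41, adjusted p = 0.00103) and 4930555F03Rik at 24.3, 16.9 and 9.76 RPM against 0.980, 2.31 and 1.37 RPM (3.80 ± 0.44, adjusted p = 0.00165). In all 3 the fractions did not overlap, as the naming rule required. On the plasma side Gm20083 (chr7:73185744-73189014) stood at 0.797, 0.162 and 0.470 RPM in EVs and 113, 184 and 67.5 RPM in plasma (−7.54 ± 0.52, adjusted p = 0.000354), and Gm49497 at 1.10, 0.162 and 0.470 RPM against 28.7, 47.7 and 23.0 RPM (−5.41 ± 0.47, adjusted p = 0.000675). All these lncRNA calls held without any single library. In the fit over all 28 libraries, 5430427N15Rik had adjusted p = 0.0937 at 2 months (log2 fold change 4.91), 0.503 at 6 to 8 months (1.05) and 0.606 at 12 to 18 months (1.33). Gm20083 was called in that fit at all ages, at −7.54, −4.91 and −6.21.

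The circRNA mmu_circ_0003667 of Golga5, a Golgi protein gene, was at 39.3, 32.2 and 50.1 RPM in EVs and 0.612, 1.06 and 1.02 RPM in plasma (log2 fold change 5.79 ± 0.40, SE, edgeR adjusted p = 0.000354). mmu_circ_0009743 of Ehmt1 was at 24.4, 25.3 and 38.9 RPM against 1.10, 1.60 and 0.797 RPM (5.03 ± 0.40, adjusted p = 0.000456), and mmu_circ_0009745 of the same gene had nearly the same values. Higher in plasma were mmu_circ_0014244 of the neuron navigator gene Nav2, at 3.09, 4.71 and 5.29 RPM in EVs and 231, 556 and 181 RPM in plasma (−5.78 ± 0.54, adjusted p = 0.000893), and 2 circRNAs of Stxbp5, a regulator of vesicle fusion, of which mmu_circ_0002605 was at 2.59, 1.14 and 1.65 RPM against 39.0, 56.9 and 18.7 RPM (−4.03 ± 0.41, adjusted p = 0.00111). The lncRNAs 4930579C12Rik and Gm2396, which share a run of 515 bases, had plasma values close to that Nav2 circRNA, and 4930579C12Rik was at 208, 517 and 194 RPM in plasma and 9.26, 7.63 and 7.05 RPM in EVs. A count on a circRNA entry does not show that the RNA is circular unless the read spans the junction, which the deposited values do not tell.

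**Figure D4:**
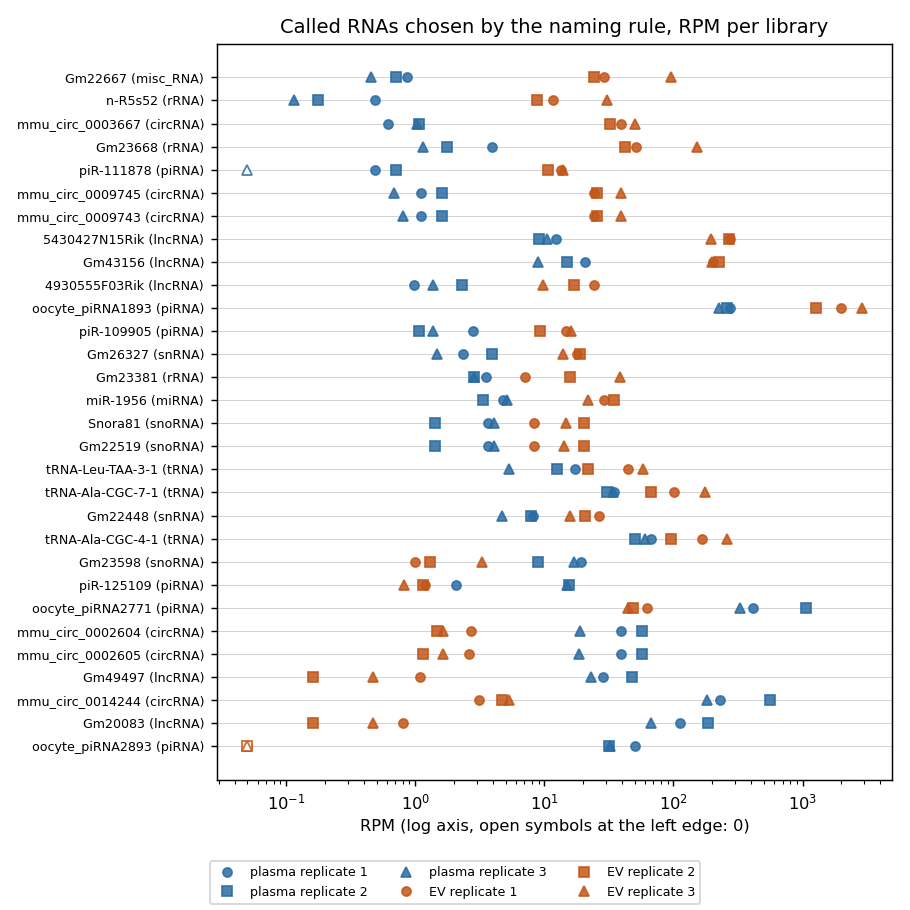
Shown is RPM per library (x axis, log scale), with EV and plasma in 2 colors, 1 symbol per replicate and open symbols for 0. Drawn are called RNAs with at least 10 RPM in the higher fraction, no overlap and the smallest adjusted p of their class and direction. The gap between the fractions in each row is thus a condition of the choice. Rows run from oocyte_piRNA2893 (0 in all EV libraries) at the bottom to Gm22667 at the top.

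Sequences annotated as piRNAs, short RNAs that silence transposons in germ cells, can in blood be fragments of other RNAs of the same sequence. oocyte_piRNA1893 was at 1998, 1261 and 2876 RPM in EVs and 276, 261 and 225 RPM in plasma (log2 fold change 3.32 ± 0.45, SE, edgeR adjusted p = 0.00376), piR-111878 at 13.3, 10.7 and 14.0 RPM against 0.490, 0.709 and 0 RPM (5.40 ± 0.57, adjusted p = 0.00111) and piR-109905 at 14.6, 9.26 and 16 RPM against 2.82, 1.06 and 1.37 RPM (3.19 ± 0.40, adjusted p = 0.00252). oocyte_piRNA2771 was higher in plasma, at 62.8, 48.4 and 44.3 RPM in EVs and 417, 1059 and 327 RPM in plasma (−3.14 ± 0.46, adjusted p = 0.00589), and piR-125109 at 1.19, 1.14 and 0.823 RPM against 2.08, 15.6 and 14.9 RPM (−3.07 ± 0.69, adjusted p = 0.0442, held in 1 of 6 fits without a library). Fractions did not overlap in these 5, which were named under that condition. oocyte_piRNA2893 had 0 counts in all EV libraries and 50.0, 31.9 and 32.4 RPM in plasma. A count of 0 allows up to 3 counts over the 3 EV libraries, 0.121 RPM, so that it was at least 318-fold higher in plasma (adjusted p = 0.000456). In all, 20 called RNAs were at 0 in every library of one fraction, 15 of them in EVs. The piRNA entries of highest RPM, piR-515 and oocyte_piRNA978, overlapped between the fractions (19948, 23224 and 15426 RPM in EVs and 23001, 30047 and 41077 RPM in plasma for piR-515).

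The same contrast in other mice answers whether the 2-month differences are seen beyond these libraries. In a fit over all 28 libraries, 1726 RNAs (9.30%) were called between EVs and plasma at 6 to 8 months (7 mice) and 1031 (5.55%) at 12 to 18 months (4 mice). That fit has no term for the mouse, although both fractions of the older mice come from the same animals, and with one the counts were 2068 and 1772. It called 322 RNAs at 2 months, so the 532 followed here, which come from the 6 libraries alone, are set against calls of another fit. Plasma replicate 1 of 6 months and plasma replicate 1 of 12 months were shallow, with 1 count worth 1.70 and 0.664 RPM. Of the 299 RNAs higher in EVs at 2 months, 299 had the same sign at 6 to 8 months and 193 (64.5%) were called there, and 298 had the same sign at 12 to 18 months with 139 called (46.5%). Of the 233 higher in plasma, 216 and 231 had the same sign and 169 (72.5%) and 152 (65.2%) were called. Among all 18564 RNAs the sign was the same in 65.4% and 64.7%, and of the 532 none was called in the opposite direction at either age. Of the 532, 254 were called at both older ages with the same sign, among them 10 of 15 rRNAs, 8 of 12 snoRNAs, 1 of 14 snRNAs and 0 of 4 tRNAs. The median log2 fold change of those higher in EVs was 2.76 at 2 months, where they were chosen, 1.89 at 6 to 8 months and 2.34 at 12 to 18 months.

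**Figure D5:**
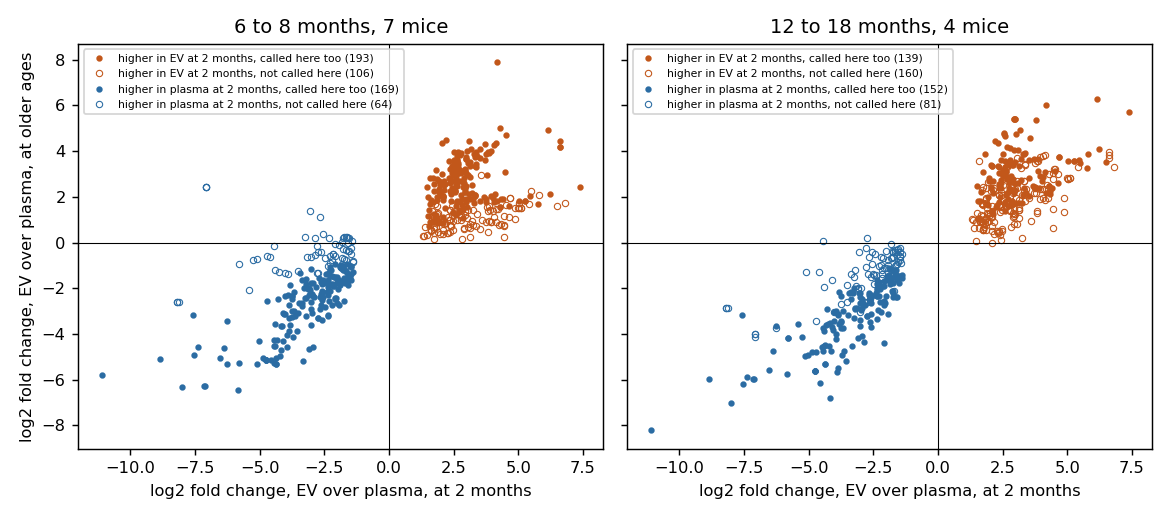
Log2 fold change of EV over plasma at 6 to 8 months (left) and 12 to 18 months (right) against that at 2 months (x axes) for the 532 RNAs called at 2 months, filled where also called at the older ages. On the left 299 of 299 EV calls and 216 of 233 plasma calls keep their side of 0, and on the right 298 and 231, with 193 and 139 of the 299 EV calls and 169 and 152 of the 233 plasma calls filled.

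The difference itself between 2 months and the older ages was tested as a contrast in the same fit. edgeR called 0 RNAs (smallest adjusted p = 0.949), and 856 of the 18564 tested had an unadjusted p under 0.05. That is less than the share of 0.05 that such a threshold passes when no RNA differs. DESeq2 likewise called 0, with 914 at an unadjusted p under 0.05. Without EV replicate 3, 1 RNA was called. Among the RNAs with the smallest p are rows that single libraries decide. The lncRNA Gm48538 was at 1684 RPM in EV replicate 1 and between 0.940 and 2.31 RPM in the other 5 libraries, and mmu_circ_0010708 of Nbea at 1347 RPM in plasma replicate 1 and between 3.57 and 14.3 RPM elsewhere. mmu_circ_0008084 of Cntnap5a, at 2.59, 1.46 and 4.23 RPM in EVs and 1.35, 0.887 and 0.569 RPM in plasma, had a log2 fold change of 1.87 at 2 months and of −0.15 and −0.19 at the older ages. A330087D11Rik, mmu_circ_0000505 and mmu_circ_0006433 are the other 3 of the 6 smallest, and all 6 have an adjusted p of at least 0.949.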

How the data were processed

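Small RNA libraries of EV-enriched pellets and EV-depleted plasma were compared at 2 months of age. The deposited tables hold raw estimated counts of each RNA. A second table deposited by the authors gives a depth-scaled signal, RPM, and every count of a library was found to be divided by the same number. The submitters' notes name R 4.0.4 and the mm10 build, and aligner and counting settings were not found there. A total of 46 RNAs have counts that are not whole, and these were rounded. Groups follow the labels. The members and lists were chosen with earlier results of these data known.

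RNAs with at least 1 RPM in at least 1 of 3 libraries of a fraction were tested with edgeR 4.0.16 (TMM, glmQLFit and glmQLFTest, R 4.3.3) and Benjamini-Hochberg adjustment at 0.05, with no replicate block. DESeq2 1.42.0, other scalings, filters and libraries left out were alternatives, and identical rows counted once was added after the data were seen. SE is the log2 fold change over the root of F. Single sums were compared by exact permutation. Named are the 3 smallest adjusted p per class and direction (at least 10 RPM, no overlap), the highest RPM per class, list members and the smallest p between ages. On simulated data of the 2-month comparison over 18562 RNAs, edgeR recovered 61% of changes of log2 2 and 100% of log2 4, with 8 false calls among 169. DESeq2 recovered 82% and 100% on the same data, with 27 false calls among 209. The changed RNAs were drawn only from RNAs of higher mean counts, and rows were simulated independently. Recovery of RNAs near the filter, or of rows that share reads, was thus not measured. Tables and figures were made in Python 3.11.15 with pandas 2.3.3, numpy 2.4.6, matplotlib 3.10.9 and scipy 1.17.1. GENCODE M21 held 12373 of 12786 transcripts of the table. Libraries held 28393 to 95288 miRNA counts, which limits precision, and floors cover counting error only. Sequences of some rRNA and snRNA transcripts are not reported here.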

Additional observations from a re-analysis of the deposited data

How the results depend on the processing

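The 532 calls (299 higher in EVs and 233 in plasma) numbered 888 (298 and 590) under RPM scaling, 754 (314 and 440) with total counts, 1169 (355 and 814) with TMM on miRNAs alone, 864 (543 and 321) with DESeq2, 1675 (918 and 757) with no filter, 290 (130 and 160) with the shared-code plasma libraries summed and 322 (133 and 189) in the fit over all 28 libraries. Leaving out 1 library gave 187 to 575 calls, 79 to 308 higher in EVs and 106 to 323 in plasma. The rRNA and tRNA shares kept their direction in these alternatives. The log2 ratio of EV to plasma for rRNA went from 1.67 to 1.30 with identical rows once, and that for tRNA from −0.92 to −0.33 without rRNA counts, and they lay between 1.55 and 1.86 and between −1.10 and −0.74 without 1 library. Between ages, 0 calls became 1 without EV replicate 3 and stayed 0 in the other fits. At 12 to 18 months, 1031 calls became 1772 with mouse as a replicate block. The labels do not say which EV library goes with plasma replicate 2 or 3, so no pairs were set in the main test. Same-numbered libraries deviated from their group means with correlations of −0.037, 0.048 and 0.097 over 18564 RNAs. Over 297 miRNAs these were 0.066, 0.195 and 0.296. Exchanged, EV replicate 2 with plasma replicate 3 gave 0.011 and −0.077, and EV replicate 3 with plasma replicate 2 gave −0.185 and −0.384. The replicate block at 2 months gave 533 calls, or 383 with plasma replicates 2 and 3 exchanged. Of 620 values of the 31 named calls under alternatives, 551 stayed past the threshold, 69 did not and 0 changed sign. Causes of these changes were not tested. Depth limits RNAs near 1 RPM, where 1 count is worth 0.0996 to 0.177 RPM.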
